A study of Mus musculus with 8 samples.

Results

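Oxidative phosphorylation subunit genes were examined in whole pancreata of 8 female NOD mice at 12 weeks of age, each compared with a single pool of 8 NOD.B10 pancreata of the same age. NOD is an inbred strain that develops autoimmune diabetes spontaneously, and NOD.B10 is a congenic strain on the NOD background with another major histocompatibility haplotype that does not become diabetic. No treatment or engineered allele was involved. Each NOD mouse was labeled red (Cy5) on its own two-color Agilent array and the pool green (Cy3), so the spread between NOD.B10 mice was not measured. There was no dye swap, so a strain difference and a dye effect of a probe cannot be told apart. Members were chosen by name alone: genes starting with Nduf, Uqcr or Atp5, the genes Sdha to Sdhd, and Cox followed by 4, 5, 6, 7 or 8 and a letter. This gave 83 genes on 117 probes, of 21597 genes on 34850 probes with a symbol. The probe with the brightest mean signal stood for each gene. In total, 82 members and 18396 genes passed the filter, which asked for a red signal of at least 25 in at least 4 arrays. The member that did not pass was Cox8c, a testis isoform of complex IV, whose red and green signals were not well above background on any array.

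Oxidative phosphorylation takes place in the inner membrane of mitochondria. Complexes I (NADH dehydrogenase) and II (succinate dehydrogenase) pass electrons to ubiquinone, complex III passes them to cytochrome c, and complex IV to oxygen, and complexes I, III and IV pump protons. ATP synthase, complex V, uses the proton gradient to make ATP. Most subunits are coded in the nucleus, and the pancreatic acinar cell, which makes and secretes digestive enzymes, depends on this ATP, as does the beta cell, where ATP couples glucose to insulin release.

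By name, 38 members that passed the filter belonged to complex I, 4 to complex II, 7 to complex III, 17 to complex IV and 16 to complex V. Of the 83, 4 were set apart as not subunits by current knowledge, although their names match. These are the assembly factors Ndufaf1 and Ndufa12l (now Ndufaf2), the complex V-related Atp5s (now Dmac2l) and Cox4nb (now Emc8). They are counted as members but left out of the values by complex. Ndufa4 is kept with complex I by name, although it is now placed in complex IV. Cox7a2l, a factor that joins complexes III and IV in supercomplexes, is likewise counted by name among the complex IV subunits. Signals were bright: in 75 members both dyes were well above background on every array, and no member had a saturated spot.

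The arrays lay on a pair of slides, with replicates 1 to 4 on slide 1 and 5 to 8 on slide 2. The red median variation between replicate spots was 16.1% to 24.8% on slide 1 and 38.2% to 63.5% on slide 2. The spatial trend that the authors' software removed from red was 0.129 to 0.215 on slide 1 and 0.359 to 0.602 on slide 2 (root mean square of the fitted surface). Replicates 5, 6 and 7 carried a failed grid flag. The slides held different mice, so slide and mouse cannot be told apart.

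The members' log2 ratios (NOD over pool) were mostly slightly below 0. In all, 61 of 82 means were below 0 and 21 above it, and the median was -0.13, or 91.3% of the pool. The medians over the members on replicates 1 to 8 were -0.08, -0.12, -0.23, -0.20, -0.06, -0.17, -0.14 and -0.07, and so every array lay below 0. Over all genes tested the median was -0.08, with 10846 of 18396 means below 0. Over 6190 bright genes, those with both dyes flagged well above background on every array, it was -0.02, with 3310 means below 0. With median-centred background-subtracted signals the median was -0.36 over members and -0.11 over bright genes. The members' slide 1 median was -0.15 and their slide 2 median -0.13. Their SD between mice had a median of 0.18, against 0.24 for the 6190 bright genes.

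In the limma fit over all probes, 27 of 82 members were lower and 5 were higher at an adjusted p under 0.05, and 50 did not pass. Over all genes tested, 14.4% were lower and 7.01% higher by the same rule, while among members it was 32.9% and 6.1%. The shares of all genes turned with the processing: 19.1% were lower and 26.1% higher with median-centred background-subtracted signals, where the median of all genes was 0.02, and 16.8% and 19.9% with the ratio of processed signals, while 29 and 21 members were lower and 3 and 1 higher. Among the 6190 bright genes, 17.0% were lower and 15.6% higher, against 24 and 5 of the 75 bright members. Members were chosen with earlier results of these data known, so this is a description with no test of the group. Of the 27 lower members, 22 were below the pool in all 8 mice, which largely goes with such a call. Below the pool in all 8 mice were 1853 of all genes tested, of which 2648 were called lower. Among the bright genes these counts were 794 and 1052. By brightness, 5 of 8 members with a mean log2 signal of 8 to 10 were lower, 1 of 12 at 10 to 12, 8 of 30 at 12 to 14, 11 of 25 at 14 to 16 and 1 of 4 at 16 to 18. Of the other genes in these bands, 13.1%, 18.7%, 20.9%, 23.8% and 15.4% were lower, so the members' share followed no order of brightness across these bands. Members dimmer than 8, among them Cox8b, Cox6a2 and Cox4i2, are not in them. Tissue was measured in bulk, so fewer cells of a type and less RNA per cell cannot be told apart.

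**Figure D1:**
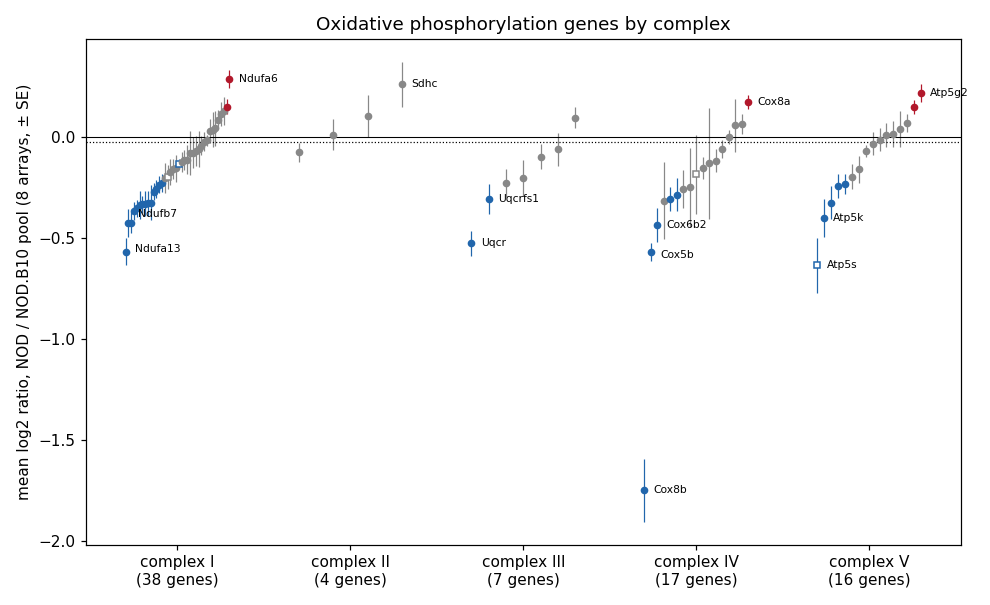
Mean log2 ratio (NOD over NOD.B10 pool, 8 arrays, bars are the SE) of the 82 members that passed the filter, by complex. Blue marks members lower and red members higher at adjusted p under 0.05, gray those that did not pass, open squares are the 4 set apart as not subunits, and the dotted line is the median of all bright genes. Cox8b, whose red signal was well above background on 0 arrays, lies lowest at -1.75, and none of the complex II genes passed.

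Complex I holds the most subunits. Of its 36, 14 were lower, 2 were higher and 20 did not pass, and the median log2 ratio was -0.14. The core subunits include the carriers of the flavin and iron-sulfur clusters. Ndufs8, an iron-sulfur subunit, averaged -0.34 ± 0.07 (SE, n = 8; adjusted p = 0.0145), and Ndufs7, which carries the last cluster before quinone, -0.24 ± 0.04 (adjusted p = 0.0088), both lower in 8 of 8 mice. Ndufs7 lost its call in 3 of 17 other fits, of which 8 leave out a mouse and 9 change the normalization, filter or model, and was at 0.01 with normexp and loess (adjusted p = 0.919), while Ndufs8 kept its call in each. Ndufs1, the largest core subunit, averaged 0.03 ± 0.06 (adjusted p = 0.765) and Ndufv1, which binds the flavin, -0.11 ± 0.05 (adjusted p = 0.163), and neither passed.

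Of the 29 accessory subunits of complex I, which surround the core, 11 were lower and 2 higher. Ndufa13, also known as Grim19, gave -0.55, -0.66, -0.83, -0.80, -0.36, -0.51, -0.55 and -0.29 in mice 1 to 8. Its mean was -0.57 ± 0.07 (adjusted p = 0.00205), or 67.4% of the pool, the lowest of complex I. Its slide 1 mice lay at or below the slide 2 mice, with slide means of -0.71 and -0.43 (adjusted p for the slide difference = 0.148). Ndufb7 averaged -0.43 ± 0.07, Ndufa1 -0.37 ± 0.04, Ndufb9 -0.35 ± 0.04, Ndufb2 -0.33 ± 0.04, Ndufb11 -0.33 ± 0.06 and Ndufc1 -0.33 ± 0.06. Ndufa5 at -0.27, Ndufa9 at -0.26 and Ndufa4 at -0.23 were lower in 8 of 8 mice as well, and Ndufb3 at -0.33 in 7 of 8. With normexp and loess Ndufa1 turned to 0.38 (adjusted p = 0.049), and Ndufa5 and Ndufb11 were at 0.18 and 0.34 and did not pass (adjusted p = 0.46 and 0.216). Ndufa13, Ndufb7 and Ndufb9 were at -0.66, -0.38 and -0.64 there and did not pass either (adjusted p = 0.0894, 0.0712 and 0.102). Ndufa4 lost its call in 3 of the 17 other fits (adjusted p = 0.0698 to 0.145), and Ndufb3 lost its call in 7 of the 17 other fits, among them those without replicates 1 to 6 in turn. Ndufb2, Ndufb7, Ndufb9, Ndufb11, Ndufa1 and Ndufc1 code for small subunits of the membrane arm, and Ndufa5 and Ndufa9 for subunits of the peripheral arm.

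Ndufa6, an accessory subunit with a LYR motif, went the other way. It gave 0.53, 0.14, 0.35, 0.18, 0.22, 0.33, 0.30 and 0.24 in mice 1 to 8, all above the pool. The mean was 0.28 ± 0.04 (adjusted p = 0.00558), or 122% of the pool. The slide means were 0.30 and 0.27. It kept its call in each of the 17 other fits, but passed on neither slide alone (adjusted p = 0.106 and 0.0524). Ndufc2, the other higher member of complex I, averaged 0.15 and was above the pool in 7 of 8 mice (adjusted p = 0.0307), and it lost its call in 8 of the 17, among them those without replicate 1, 2, 6, 7 or 8.

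None of the 4 genes of complex II passed. Its median log2 ratio was 0.06. Sdhc, a membrane anchor with heme, had the highest mean of the complex, 0.26 ± 0.11 (adjusted p = 0.143), with -0.14, -0.08, 0.23 and 0.02 on slide 1 and 0.33, 0.63, 0.78 and 0.32 on slide 2. Those slides did not overlap, but the difference of 0.51 did not pass across all genes (adjusted p = 0.103). Sdha, the flavoprotein, averaged 0.10 ± 0.10, the iron-sulfur subunit Sdhb -0.08 ± 0.05 and the anchor Sdhd 0.01 ± 0.08. A p that misses the threshold does not show that the strains are alike.

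In complex III, 2 of 7 subunits were lower and none was higher, with a median of -0.20. Uqcr (now Uqcr11), a small subunit, gave -0.56, -0.62, -0.72, -0.61, -0.38, -0.73, -0.34 and -0.25 in mice 1 to 8. The mean was -0.53 ± 0.06 (adjusted p = 0.00211), or 69.4% of the pool. With normexp and loess it was -0.27 and did not pass (adjusted p = 0.211). Uqcrfs1, the Rieske iron-sulfur protein, averaged -0.31 ± 0.07 (adjusted p = 0.0262), with every slide 1 mouse between -0.20 and -0.08 and every slide 2 mouse between -0.71 and -0.31. Its slide difference did not pass (adjusted p = 0.147). Its call was lost in 4 of the 17 other fits, those without replicate 5, 7 or 8 and with normexp and loess (adjusted p = 0.0528 to 0.0645). Uqcrc1, a core protein, had the highest mean of the complex at 0.09 ± 0.05 (adjusted p = 0.253). The remaining subunits did not pass.

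Of the 16 complex IV subunits that passed the filter, 5 were lower, 1 was higher and 10 did not pass, with a median of -0.20. Cox5b, a zinc-binding subunit on the matrix side, had the smallest adjusted p of all members. It gave -0.59, -0.63, -0.79, -0.65, -0.42, -0.53, -0.51 and -0.44 in mice 1 to 8, at red signals from 19456 to 26596. The mean was -0.57 ± 0.04 (adjusted p = 0.000478), or 67.3% of the pool, and it passed on each slide alone (adjusted p = 0.0151 and 0.0323). Cox4i1, the largest nuclear-coded subunit and its ubiquitous isoform, averaged -0.31 ± 0.06 (adjusted p = 0.012), and -0.65 with normexp and loess, where it did not pass (adjusted p = 0.123). Cox5a, the partner of Cox5b in name, averaged -0.12 ± 0.06 and did not pass (adjusted p = 0.185).

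Among the isoform pairs, ubiquitous and tissue-restricted forms were set side by side by their ratios only, since array signals of different probes cannot be compared as levels. Cox8b, the form found in heart, skeletal muscle and brown fat of the mouse, was the only member past the study's 2-fold rule (adjusted p under 0.01), which 1.69% of all genes tested passed. It gave -2.32, -1.11, -1.34, -1.51, -2.04, -2.37, -1.56 and -1.76 in mice 1 to 8, below the pool in each. The mean was -1.75 ± 0.15 (adjusted p = 0.000816). Its red signal was only 60.1 to 144 and was well above background on 0 arrays. On 5 of 8 arrays the authors' software had put in a stand-in value for red. The green signal was 259 to 368 and was well above background on all 8. Asking for red well above background on at least 4 arrays left Cox8b out, normexp and loess put its mean at -0.26 (adjusted p = 0.0166), and median-centred background-subtracted signals put it at -2.25. Neither slide alone called it at the 2-fold rule. Cox8a, the widely expressed form of the same subunit, was higher at 0.17 ± 0.03 (adjusted p = 0.0132), in 8 of 8 mice, but it lost its call in 4 of the 17 other fits and was at -0.11 with median-centred background-subtracted signals (adjusted p = 0.676).

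Since Cox8b is a muscle and brown fat gene, the markers of those tissues are given beside it. Of 10 skeletal muscle markers, 8 passed the filter, of which 2 were lower (Acta1 and Tnni2) and 0 higher, with a median of -0.20, and 0 were well above background in red on 4 or more arrays. Of 6 heart markers, 5 passed, with 2 lower (Myl7 at -1.24 and Tnni3 at -1.06), and of 5 brown fat markers 1 was lower (Dio2 at -0.98). Red was well above background on 0 arrays for Myl7, Tnni3 and Dio2, and it was a stand-in value on 2, 1 and 5 arrays. Ucp1 and Elovl3, which define brown fat, had stand-in red values on all 8 arrays and log2 ratios of 0. The summed red signal was 479 to 763 in the skeletal muscle list, 551 to 817 in the heart list and 211 to 350 in the brown fat list, and the summed green signal 468 to 747, 760 to 947 and 252 to 377. Their part in the Cox8b result was not tested.

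Cox6b2, described as a testis form, averaged -0.44 ± 0.08 (adjusted p = 0.0115) and was lower in 7 of 8 mice, and its ubiquitous partner Cox6b1 averaged -0.29 ± 0.08 (adjusted p = 0.0488). Cox6b1 lost its call in 13 of the 17 other fits, including those without any 1 mouse except replicate 6, and Cox6b2 in 2, with normexp and loess (-0.08) and with median-centred signals (-0.16). Cox6a1 averaged -0.26 ± 0.09 (adjusted p = 0.0936) and the muscle form Cox6a2 -0.13 ± 0.28 with red well above background on 2 arrays. Cox4i2, the lung-enriched form, averaged -0.25 ± 0.20 with red well above background on 0 arrays. With median-centred signals Cox4i2 was at 0.97 and passed (adjusted p = 0.0085), opposite in sign. Cox7a1, of heart and muscle, averaged 0.06 ± 0.13 and Cox7a2, of liver and other tissues, 0.00 ± 0.04, and neither passed. Cox7b, which has no muscle form on these arrays, averaged 0.06 ± 0.05.

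**Figure D2:**
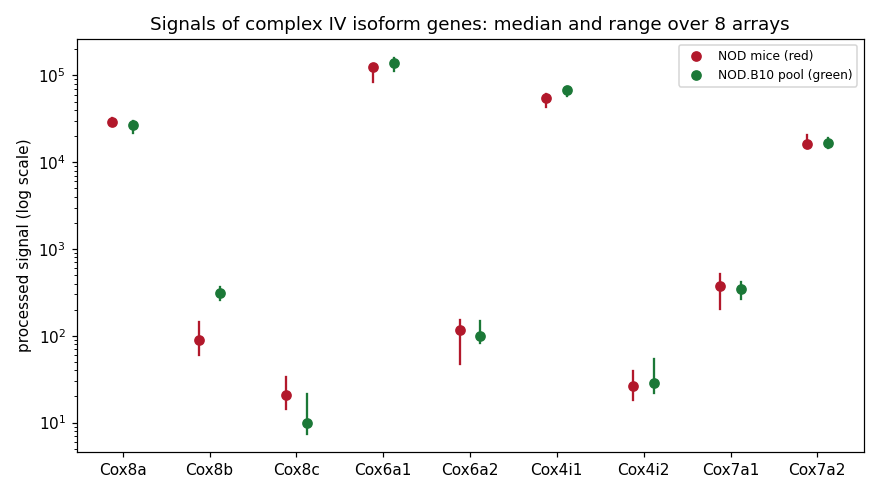
Processed signal (log scale, intensity units of the scanner software) of complex IV isoform genes for the NOD mice (red) and the pool (green). Points are the medians and lines the range over 8 arrays. The red range of Cox8b (60.1 to 144) lies below its green range (259 to 368), while the ranges of Cox8a, Cox6a1 and Cox7a2 overlap.

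ATP synthase had a median of -0.03. Of 15 subunits, 4 were lower (Atp5k, Atp5e, Atp5j and Atp5o), 2 higher (Atp5g2 and Atp5l) and 9 did not pass. With normexp and loess Atp5j was at 0.38 and Atp5l at -0.25, and neither passed (adjusted p = 0.254 and 0.364). In the catalytic head, which makes ATP, Atp5a1 averaged 0.04 ± 0.09 and the catalytic subunit Atp5b -0.01 ± 0.06, and 1 of its 5 genes, Atp5e, was lower. The other Atp5a1 probe was called higher at 0.18. Atp5k, subunit e of the membrane part, averaged -0.40 ± 0.10 (adjusted p = 0.0254), with -0.46, -0.57, -0.71 and -0.70 on slide 1 and -0.12, -0.19, 0.04 and -0.49 on slide 2. Atp5k, Atp5e and Atp5j each lost their call in 7 of the 17 other fits, 4 to 6 of which left out a mouse, Atp5l in 5 and Atp5o in 3. The 3 genes for the c-ring, which code the same mature protein, differed in their calls. Atp5g2 was higher at 0.22 ± 0.05 (adjusted p = 0.0167), while Atp5g1 at -0.03 ± 0.06 and Atp5g3 at 0.01 ± 0.06 did not pass. A second Atp5g2 probe gave -0.07, so the call holds for the brighter probe only. Atp5s, not itself a subunit, averaged -0.63 ± 0.14 (adjusted p = 0.0172), with red well above background on 2 arrays and stand-in red values on 3.

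**Figure D3:**
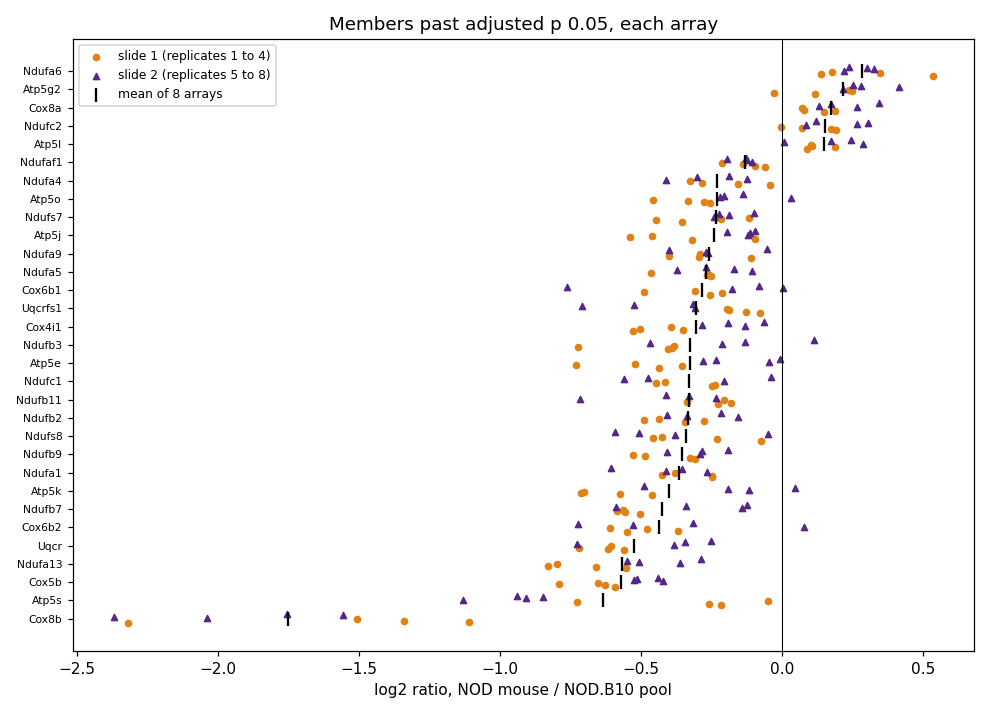
Log2 ratio (NOD mouse over NOD.B10 pool) on each array for the members past adjusted p 0.05, all but 1 of them drawn. Circles are slide 1, triangles slide 2 and bars the mean. Cox8b lies lowest at -1.75, and Ndufa6, Atp5g2, Cox8a, Ndufc2 and Atp5l lie above 0.

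Promoters of the members were compared with motifs for factors known to regulate respiratory genes. The RefSeq promoter table (GRCm38.p6, 250 bases before to 50 after each start) held 68 of the 83 members. The motifs were searched on both strands as exact letters: GCGCATGC for NRF1, CCGGAAG for the ETS factor GABPA, AAGATGGC for YY1 and GGGCGG for SP1. The NRF1 letters stood in 14.7% of member promoters and 3.05% of all 27025 genes with a promoter. The GABPA letters were in 25% and 9.93%, those of YY1 in 14.7% and 3.19%, and those of SP1 in 42.6% and 38.2%. A gene was counted once if any of its promoters held the letters, and matches of different motifs overlapped in 1 member, Ndufs3 (SP1 and GABPA). Of the 24 lower members with a promoter, 2 held the NRF1 letters, 8 the GABPA letters and 4 the YY1 letters. Of the 5 higher members, 3 held the NRF1 letters and 2 the GABPA letters. A match is a description of these windows only. The windows below show the NRF1 and YY1 letters of every called member that held them, and the GABPA letters of Ndufb7, Ndufs8 and Cox8a as examples, 30 bases each, 5′ to 3′ in the direction of the gene, with the motif in capitals.
Ndufa6 (higher, NRF1, chr15:82354356-82354385, minus strand): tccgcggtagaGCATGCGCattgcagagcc
Atp5g2 (higher, NRF1, chr15:102671071-102671100, minus strand): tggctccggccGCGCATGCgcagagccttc
Atp5l (higher, NRF1, chr9:44920963-44920992, minus strand): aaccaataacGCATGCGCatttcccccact
Atp5k (lower, NRF1, chr5:108434431-108434460, minus strand): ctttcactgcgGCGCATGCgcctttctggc
Uqcr (lower, NRF1, chr10:80406807-80406836, minus strand): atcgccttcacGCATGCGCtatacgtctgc
Ndufa9 (lower, YY1, chr6:126849097-126849126, minus strand): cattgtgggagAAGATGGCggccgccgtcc
Ndufc1 (lower, YY1, chr3:51408915-51408944, minus strand): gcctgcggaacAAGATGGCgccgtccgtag
Ndufs7 (lower, YY1, chr10:80249462-80249491, plus strand): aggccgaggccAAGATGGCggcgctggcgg
Atp5j (lower, YY1, chr16:84835046-84835075, minus strand): aaagtgtaggaAAGATGGCggagtcttagc
Ndufb7 (lower, GABPA, chr8:83566726-83566755, plus strand): agcctagatgacCCGGAAGacactgaaggg
Ndufs8 (lower, GABPA, chr19:3912742-3912771, minus strand): cttaggctccgcCTTCCGGttgaaccgcat
Cox8a (higher, GABPA, chr19:7217604-7217633, minus strand): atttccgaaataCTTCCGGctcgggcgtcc
The YY1 letters of Ndufa9, Ndufc1 and Ndufs7 lay 30, 23 and 25 bases after the start, inside the transcript, while those of Atp5j lay before it, at position -88. The NRF1 letters lay between positions -240 (Atp5l) and -4 (Uqcr) from the start. The same NRF1 letters thus stood at members that were higher and at members that were lower. The promoters of Cox5b and Cox8b held none of the 4 motifs.

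The slides were compared next, since the arrays of each slide held other mice. In this test 3 of 82 members differed at an adjusted p under 0.05, against 3.87% of all genes tested, and the median slide difference (slide 2 minus slide 1) was 0.08 over members and 0 over all genes. Among bright genes it was 3 of 75 members against 8.01% of 6190 genes, with median differences of 0.10 and 0.05. The members' median difference turned to -0.21 with normexp and loess and to -0.41 with median-centred signals. Cox7a2l, a factor that joins complexes III and IV in supercomplexes, gave -0.02, 0.36, 0.16 and 0.22 on slide 1 and -0.52, -0.94, -1.07 and -0.72 on slide 2. The slides did not overlap, as in 18 of 82 members and 2655 of 18396 genes. Among bright genes this held for 17 of 75 members and 1581 of 6190 genes. The difference of Cox7a2l was -0.99 ± 0.14 (adjusted p = 0.0222). Uqcrc1 went the opposite way, with -0.03, -0.05, -0.08 and 0.00 on slide 1 and 0.25, 0.22, 0.27 and 0.18 on slide 2, a difference of 0.27 ± 0.04 (adjusted p = 0.0222). Atp5g1 differed by 0.29 ± 0.05 (adjusted p = 0.0307), with slide means of -0.18 and 0.11. Without replicate 2, the count of members that differed fell to 0, and without replicates 3, 4 or 7 it was 1. Sdhc, Ndufb8, Ndufa3, Atp5k, Cox4i2, Cox6a2, Cox4nb and Atp5s had large slide differences that did not pass.

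**Figure D4:**
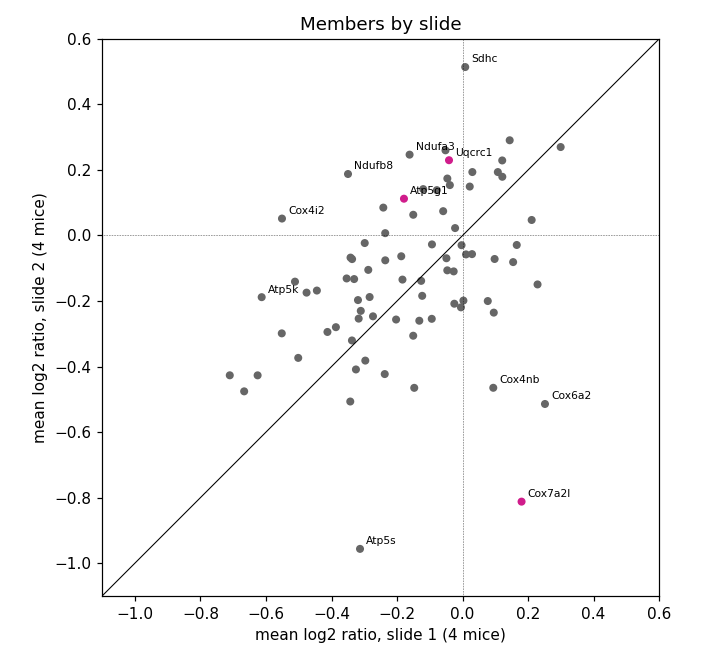
Mean log2 ratio of each member on slide 1 (x axis, 4 mice) against slide 2 (y axis, 4 mice), without Cox8b, which lies off the axes. Pink marks the 3 members past adjusted p 0.05 for the slide difference. Cox7a2l lies at 0.18 and -0.81, far from the line of equal values, and Sdhc at 0.01 and 0.51.

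Within slide 1 alone, 23 members were lower and 1 higher at an adjusted p under 0.05, with 9.81% and 6.68% of all genes tested. Within slide 2 alone, 4 were lower and 0 higher, with 0.886% and 0.843% of all genes. All 27 members lower over both slides had a negative mean on each slide, 18 of them past the test on slide 1 and 4 on slide 2. They were called on these same 8 arrays, so the shared sign largely follows from the call. Means were negative on both slides in 46 of 82 members, 7173 of 18396 genes tested and 2151 of 6190 bright genes. At the 2-fold rule neither slide alone called any member.

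**Figure D5:**
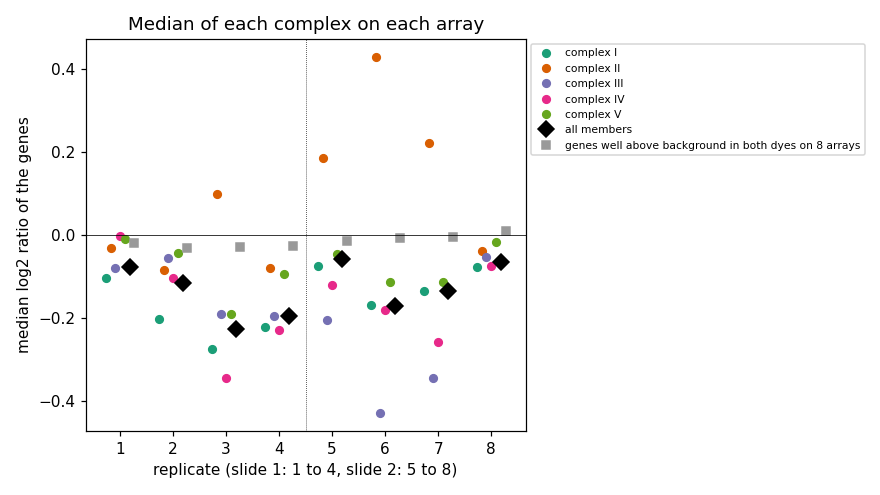
Median log2 ratio of the members of each complex, of all members and of all bright genes on each array (x axis, replicates 1 to 8, slides parted by the dotted line). All 8 medians over the members lie below 0, between -0.23 and -0.06, while those of complex II run from -0.08 to 0.43.

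Other genes of mitochondria and of the tissue were read from lists of whole groups, from which genes were named after their values were seen. Of 5 electron carriers and subunits outside the naming rule that passed, 1 was lower (Cyc1, the heme subunit of complex III, at -0.22, adjusted p = 0.0125). Of 19 assembly factors that passed and are not members by name, 6 were lower and 2 higher, with a median of -0.22. Cox11, a copper carrier for complex IV, averaged -0.39 and was lower in 8 of 8 mice, while Atpaf1, which helps to assemble ATP synthase, averaged 0.45 and was higher in 8 of 8. Cox15, at -1.30, and Sco1, at -0.95, had red well above background on 0 arrays. Of 17 genes of the tricarboxylic acid cycle and pyruvate dehydrogenase, 1 was lower (Fh1 at -0.26) and 2 higher (Suclg2 at 0.85 and Sucla2 at 0.20), with a median of -0.03. Of 14 biogenesis regulators, 2 were lower and none higher. These were Polg2, of the mitochondrial DNA polymerase, at -0.54 and Gabpb1, the partner of Gabpa, at -0.68, with red well above background on 2 and 0 arrays. Of the factors whose motifs were searched, the list held Nrf1, Gabpa and Yy1 but not Sp1, and none of the former passed (Nrf1 at -0.38, Gabpa at -0.04 and Yy1 at -0.13, with adjusted p of 0.312, 0.895 and 0.528). Their red signals were well above background on 1, 4 and 7 arrays. Of 15 carriers and import proteins, 2 were lower (Vdac2 and Timm44) and 5 higher (Hspa9, Vdac3, Timm23, Tomm20 and Tomm22), with a median of 0.16. Hspa9, a mitochondrial chaperone, averaged 0.64 and was higher in 8 of 8 mice, and Timm44, its import partner, averaged -0.57 and was lower in 8 of 8.

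Of the cell types the tissue holds, 3 of 13 acinar markers were higher (the enzymes Pnlip, Pnliprp1 and Ctrb1) and none lower, with a median of 0.10 and a summed signal of 2830544 to 5257598 in red and 2824368 to 3349318 in green. Among islet markers 3 of 12 were lower (Pdx1, Pcsk2 and Chga) and none higher, with a median of -0.54 and a summed red signal of 57047 to 320607 against 199316 to 254014 in green. Among T cell markers 4 of 9 were higher (Cd3d, Cd3e, Cd5 and Lck), with a median of 0.61, as was 1 of 7 myeloid markers (Itgax), and none of 7 B cell markers passed. Of these genes, Cd3e, Pcsk2 and Chga were well above background in both dyes on every array. Red was well above background on 3 arrays for Cd3d, 4 for Cd5 and Lck, and 1 for Itgax and Pdx1, and green on 5 for Cd3d and 2 for Lck. Of 7 adipocyte markers 1 was lower (Lep, with red well above background on 0 arrays), with a median of -0.91. Their part in the members' ratios was not tested.

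Several probes were available for 27 members. All probes of a gene had the same sign in 15 of them, no gene had calls in opposite directions, and the median range between probes of a gene was 0.15. Among the named genes, Sdha and Atp5g2 changed sign with another probe that passed the filter, and a second Ndufb8 probe was called lower at -0.85 where the reported one gave -0.08. The probes lie on mm8. The reported Cox5b probe is on chromosome 1 (36637808 to 36637867, plus strand), that of Ndufa6 on chromosome 15 (82178778 to 82178837, minus strand), that of Cox8b on chromosome 7 (140750273 to 140750332, minus strand) and that of Cox7a2l on chromosome 17 (83410820 to 83410879, minus strand). The probes of 17 members span more than 60 bases of the genome and so cross an intron, and every member's chromosome is the one RefSeq gives it.

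The calls depended on how the spot signals were corrected and normalized. Centring each array on its median kept 25 of the 27 lower and 5 of the 5 higher calls. When the raw spot signals were normalized anew with normexp and loess, which leaves out the spatial trend removal, 9 of the 27 lower and 3 of the 5 higher members kept their calls, and 21 and 4 kept their sign. By slide, 24 of the 27 had a negative mean on slide 1 and 19 on slide 2. With background-subtracted signals centred on the median, 16 and 2 kept their calls. Cox5b, Ndufa9, Ndufb2, Ndufc1 and Ndufs8 stayed lower past the test in all of the 17 other fits, and Ndufa6 stayed higher. With normexp and loess, Ndufa1, -0.37 as deposited, was called in the opposite direction. Ndufa5, Ndufaf1, Ndufb11, Ndufs7 and Atp5j, lower as deposited, had means above 0 there and did not pass, and neither did Atp5l, higher as deposited and below 0 there.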

How the data were processed

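Total RNA of whole pancreas was amplified, labeled and hybridized by the authors to Agilent 4x44K mouse arrays, which were read with Feature Extraction (version 10.7.3.1, build mm8). The deposited files hold, for each spot, the log10 ratio of the dyes (red to green) and processed intensities, that is, after background subtraction, spatial detrending and linear and lowess dye normalization by the authors. Array intensities give no read depth, and the number of arrays (8) limits precision.

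Ratios were put on the log2 scale, with a mean over the spots of each probe. The 28105 probes with a symbol and a red signal of at least 25 in at least 4 arrays were fitted by a one-sample moderated model in limma 3.58.1 under R 4.3.3, with Benjamini-Hochberg adjustment over all of them. The same fit tested slide 2 against slide 1. Fits were tested on simulated data. Tables and plots were made in Python 3.11.15 with pandas 2.3.3 and matplotlib 3.10.9. The labels do not state whether replicates share a litter or day. The p-values measure the spread between these 8 arrays, each with its own mouse, in which mouse and array variation cannot be told apart. Any error in the single shared pool is not part of that spread.

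The named genes were the 20 smallest adjusted p under 0.05, the highest and lowest mean in each complex, the 5 largest slide differences in each direction, core subunits, isoform pairs and members that failed the filter. Ndufb3, Ndufc2, Atp5e, Atp5j, Atp5l and Atp5o, outside that rule, and the genes of the lists were named after their values were seen. The members, the 14 gene lists and the tests were chosen with earlier results of these data known. Alternatives were another normalization, centring, filter, statistic, probe choice, slide and mouse set. Probe and protein sequences and mm8 sequence were not used here. The values of 1 member are not reported here.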

Additional observations from a re-analysis of the deposited data

Results flagged for a closer look

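Of the named members, Ndufb11 on replicate 5 was the 1 value that stood apart from its group: its log2 ratio was -0.72, against -0.41 in the nearest mouse and -0.18 at the other end of the range (gap over range 0.569, above Dixon's 95% critical value for 8 arrays). Replicate 5 is on slide 2 and carried a failed grid flag. Chance would flag about 1 in 20 groups.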

How the results depend on the processing

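Leaving out each mouse in turn gave 22 to 26 lower and 3 to 5 higher members, 1 member past the 2-fold rule each time, 0 to 4 members that differed between slides, a median log2 ratio of -0.14 to -0.12 and a median slide difference of 0.06 to 0.10. The count past 2-fold was 0 with red well above background on at least 4 arrays, with normexp and loess and on either slide alone, and 10 with median-centred background-subtracted signals. Higher members numbered 2, 3 and 1 with red well above background, with median-centred signals and with the ratio of processed signals, and 1 and 0 on slides 1 and 2 alone, and lower members 4 on slide 2 alone. Members that differed between slides numbered 7, 5 and 1 with normexp and loess, median-centred signals and array centring, and the median slide difference turned to -0.21 and -0.41 with the first of these and with median-centred signals, where the median log2 ratio was -0.36. Both of these settings leave out the spatial trend removal. The cause was not tested. The slide-alone fits were chosen after seeing the data.

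Signs of named members turned as follows. With normexp and loess, the log2 ratios were 0.41 for Atp5b, 0.53 for Cox6a1, 0.40 for Cox7a2, 0.38 for Ndufa1, 0.18 for Ndufa5, 0.072 for Ndufaf1, 0.34 for Ndufb11, 0.012 for Ndufs7 and -0.21 for Uqcrc1. With median-centred signals they were 0.97 for Cox4i2, 0.084 for Cox6a2, 0.24 for Cox7a2, -0.11 for Cox8a, 0.0024 for Ndufa1, 0.020 for Ndufa5, 0.19 for Ndufaf1 and -0.37 for Uqcrc1. Array weights gave -0.0024 for Ndufa3, -0.0089 for Ndufs1 and -0.022 for Sdhd. Array centring gave 0.00083 for Atp5b and 0.015 for Cox7a2. Another probe gave -0.069 for Atp5g2 and -0.13 for Sdha, and the mean over probes -0.015 for Sdha. Leaving out a mouse gave ranges of -0.059 to 0.011 for Atp5b, -0.017 to 0.045 for Atp5g3, -0.26 to 0.058 for Cox6a2, -0.027 to 0.12 for Cox7a1, -0.019 to 0.022 for Cox7a2, -0.0065 to 0.10 for Ndufa3 and -0.048 to 0.045 for Sdhd, and none of these 7 passed over all 8 arrays. No paired analysis was possible because the arrays form 1 group against a shared pool.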
